A study of Saccharomyces cerevisiae with 12 samples.

Results

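Budding yeast cells (Saccharomyces cerevisiae, strain pJD47) collected 30 min after leaving quiescence were compared with cells collected 240 min after leaving it, by sequencing of poly(A) RNA, with n = 3 libraries at each time. Quiescence is a reversible resting state in which starved cells stop dividing. All 6 libraries share 1 history: growth on glucose, 7 days in water with 10 mM D3-acetate (acetate carrying deuterium), a wash, and transfer to a liquid medium whose composition the labels do not give. The other groups of the study, quiescent cells and cells in log growth (n = 3 libraries each), enter here only as reference levels and in the estimate of the spread. The labels name no mutation or transgene beyond the strain. They call the libraries biological replicates without saying that they were separate cultures throughout, so the p-values measure the spread between these libraries, which may in part be technical. Every gene with a mean normalised read count of at least 10 across the 12 libraries of the study was compared, which left 5871 of 6120 genes.

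Starved yeast that meets nutrients again restarts ribosome production through the TOR and protein kinase A pathways, and the genes for ribosomal proteins answer to other promoter elements than the genes for the factors that assemble ribosomes. Glucose switches on the glucose transporters of low affinity and the glycolytic enzymes, and it silences the genes for acetate and fatty acid use through the kinase Snf1 and activators such as Cat8. Chaperone genes answer to the heat shock factor Hsf1 and genes for poor nitrogen sources to GATA factors.

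Values are normalised read counts, that is, reads divided by 1 size factor per library. Changes are log2 fold changes of 240 min against 30 min on log2(value + 1), given as estimate ± SE, and a gene was called at an adjusted p under 0.05 in limma's test with Benjamini-Hochberg adjustment over all 5871 genes. The whole reads recovered numbered 7943459 to 11866340 at 30 min and 11572190 to 12428294 at 240 min. In the reference groups they numbered 1195233 (replicate 1) to 5220494 in quiescent cells and 13480102 to 15100323 in log growth. Time separated the 6 libraries along the first principal component (71.5% of the variance), and replicate 1 stood apart from replicates 2 and 3 along the second (21.3%). At 30 min the median absolute log2 difference between libraries was 0.329 and 0.337 for replicate 1 against the other two and 0.0991 between those. At 240 min it was 0.397, 0.380 and 0.0678. In quiescent cells it was 0.408, 0.376 and 0.130, and in log growth 0.650, 0.644 and 0.209. What sets replicate 1 apart is not given in the labels and was not tested.

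At 240 min 779 genes were higher (13.3% of those tested) and 823 were lower (14.0%) than at 30 min. Of these, 439 genes had risen at least 2-fold (7.48%) and 558 had fallen at least 2-fold (9.50%), and the median over all genes tested was -0.01. The counts rest on few libraries: they ranged from 516 higher and 495 lower without 30-min replicate 2 to 1114 and 1164 without log-growth replicate 1, and were 1777 and 1782 without replicate 1 of all groups. Without 30-min replicate 3 they were 529 and 522, without 240-min replicate 2 they were 523 and 555, and without 240-min replicate 3 they were 518 and 535. A fit of the 6 libraries of the 2 times alone gave 1082 higher and 1179 lower genes. A total of 438 of the higher and 442 of the lower calls held without each of the 12 libraries in turn. Libraries of the 2 times did not overlap in 774 of the 779 higher and 819 of the 823 lower genes. Over all 5871 genes tested, 1501 lay wholly higher and 1618 wholly lower at 240 min. Genes of largest change and called list members were named only where libraries did not overlap. Where that is stated for such a gene, it follows from the rule and is no further evidence. Scaling to the total count in place of the size factors lowered the median to -0.461 and gave 328 higher and 1935 lower genes. All 328 were among the 779, and all 823 lower genes were still called lower. Of the 532 genes that met the rules for naming given below, 45 lost their call under that scaling. Higher calls lost there included those of ATP16, CYC1, MDN1, MRPL50, NOP1, SBA1, UGA1, YEF3, YPS1, LHS1, FPR2, SEC61, SEC63, MGE1, snR13 and snR64. In bulk RNA, a change in the amount of a transcript per cell and a change in the share of cells that make it cannot be told apart.

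**Figure D1:**
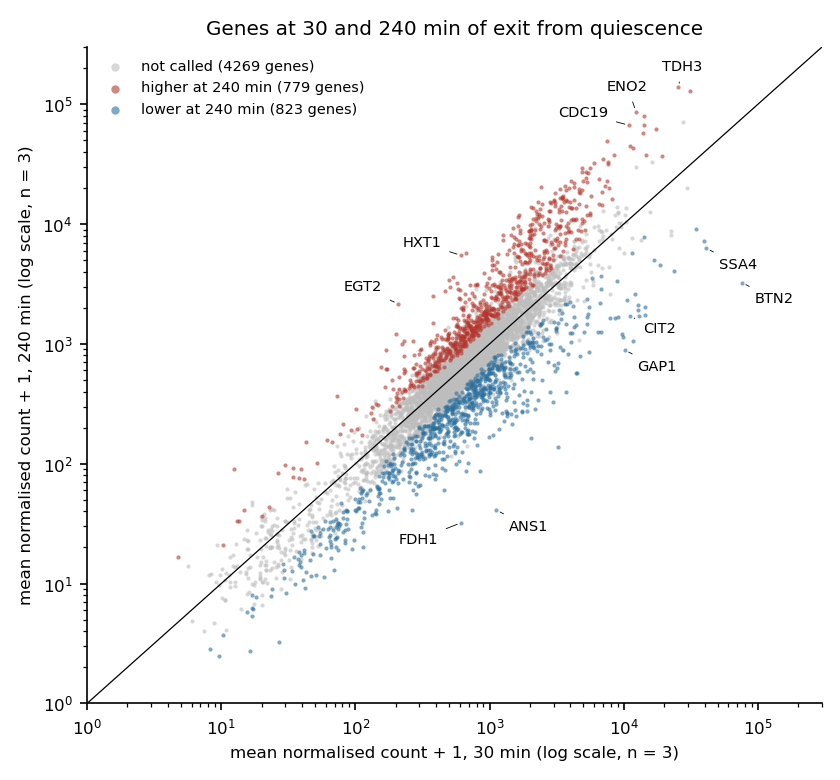
Mean normalised read count + 1 at 240 min (vertical axis, log scale) against that at 30 min (horizontal axis, log scale) for the 5871 genes tested, n = 3 libraries each. Red points are the 779 genes called higher and blue points the 823 called lower, the line marks equal values, and EGT2 and HXT1 lie far above it, ANS1 and BTN2 far below.

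The largest increases were spread over a few functions. Among the 15 largest were 5 ribosomal protein genes (RPL9A, RPS21B, RPS22A, RPS1B and RPS8B), enzymes of the cell wall and of daughter separation (EGT2, CTS1 and UTR2), the glucose transporter HXT1, the enzymes ENO2, GND1 and IMD2, and the histone gene HTA2. The largest decreases held the chaperone-related genes BTN2, SSA4 and FES1, the nitrogen transporters GAP1 and MEP2, the activator SIP4 and the TOR subunit LST8. ANS1 fell the most: its values were 1324, 912 and 1129.6 at 30 min and 23, 55.3 and 41.8 at 240 min (log2 change -4.84 ± 0.40 (SE), adjusted p = 3.46e-05), against 34.5 in quiescent cells. YMR244W had 2433, 3314 and 3899.7 at 30 min and 66.8, 190.4 and 155 at 240 min (-4.64 ± 0.46 (SE), adjusted p = 5.03e-05). Both were high at 30 min alone among the 4 groups, and neither has a role that is given in the files used here.

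Ribosomal protein transcripts rose almost as a block. Of 81 tested genes for the large subunit of the cytosolic ribosome 71 rose and none fell (median 2.03), and of 57 for the small subunit 51 rose and none fell (median 2.16). Under total-count scaling 64 and 50 were called higher. The large-subunit genes took 3.2% to 3.45% of the reads at 30 min and 9.45% to 10.9% at 240 min. RPS1B (chrXIII:146482-147249, plus strand), a component of the small subunit, had 6429.8, 7990.2 and 8245 at 30 min and 35929, 55758 and 56166 at 240 min (2.68 ± 0.29 (SE), adjusted p = 7.16e-05). All 3 libraries at 240 min lay far above all 3 at 30 min, and the mean in log growth was 60578 ± 15209.9. RPL9A (chrVII:227754-228329, minus strand) had 2062, 2632 and 2569 at 30 min and 14228, 24489.5 and 22371 at 240 min (3.04 ± 0.31 (SE), adjusted p = 6.14e-05).

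The 2 gene copies of a ribosomal protein did not always move by the same amount. RPL9A exceeded its copy RPL9B (1.501 ± 0.34) by 1.54 (1.46 to 1.62 in the 3 replicates), and the difference RPS21A minus RPS21B was -1.09 (-1.18 to -1.02 in the 3 replicates). RPL7A rose (1.92 ± 0.43 (SE), adjusted p = 0.00599) where RPL7B had 0.63 ± 0.54 (adjusted p = 0.421), a difference of 1.29 (1.16 to 1.39 in the 3 replicates). A difference between copies within a library does not depend on how the libraries were scaled. These copies are nearly identical in sequence, so reads may have been shared between them in the authors' counting and each copy's own value is uncertain. Among the genes below the threshold were RPS15 (RPS15 values 3998, 1213 and 1319 at 30 min and 16127, 5501 and 5964 at 240 min, 2.12 ± 0.75, adjusted p = 0.0541) and RPL16B (1.78 ± 0.62, adjusted p = 0.0505). With the replicate number as a block these came to 0.00112 and 0.0169, and the block gave 78 and 55 higher genes in the lists.

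Most factors that assemble ribosomes were not called. Of 111 such genes 6 rose and 1 fell (median 0.18), where 13.3% of all genes rose and 14.0% fell. At 30 min 95 of the 111 were called higher than in quiescent cells and 3 lower (median 1.81). That test shares its 30-min libraries with the comparison of 240 min against 30 min, so the 2 results are not independent. Of all 5871 genes 1211 were higher and 1394 lower by that test. Of the ribosomal protein genes for the large subunit 3 were higher and 2 lower, and for the small subunit 4 and 0. At 240 min 32 assembly genes were higher than in log growth and none lower. Against log growth 4.09% of all genes were called higher and 3.27% lower. They took 3.9% to 4.01% of the reads at 30 min and 2.95% to 3.52% at 240 min. The count of higher genes was 2 without 240-min replicate 2, 3 without 30-min replicate 2 or 30-min replicate 3 or 240-min replicate 3 or quiescent replicate 2 or quiescent replicate 3 and 10 without log-growth replicate 1, and that of lower genes 4 without log-growth replicate 1. Assembly genes numbered 0 higher and 9 lower under total-count scaling and 47 and 6 without replicate 1 of all groups. Their median was -0.27 under total-count scaling and -0.11 within replicate 1. NOP1, the methylase that modifies ribosomal RNA, had 2355, 2462 and 2797 at 30 min and 4398, 6374 and 6480.5 at 240 min (1.16 ± 0.28 (SE), adjusted p = 0.00894). MDN1, the large ATPase that strips factors from the maturing subunit, had 1.02 ± 0.22. YAR1, the chaperone of the ribosomal protein Rps3, went the other way: 8449, 8301 and 6874 at 30 min and 1487, 1742 and 1732 at 240 min (-2.25 ± 0.32 (SE), adjusted p = 0.000394), with no overlap between the times. Of 72 genes for the mitochondrial ribosome 1 rose (MRPL50) and none fell (median 0.05). The higher count was 0 without 30-min replicate 2 or 30-min replicate 3 or 240-min replicate 2 or 240-min replicate 3 or quiescent replicate 2 or quiescent replicate 3 and 6 without log-growth replicate 1, and the lower count 1 without 30-min replicate 1 or quiescent replicate 1 and 4 without log-growth replicate 1. Mitochondrial ribosome genes numbered 6 higher and 5 lower with the replicate block, 0 and 15 under total-count scaling and 21 and 11 without replicate 1 of all groups. Their median was -0.40 under total-count scaling and -0.06 within replicate 1. The MRPL50 call was lost without 30-min replicate 1, 30-min replicate 2, 30-min replicate 3, 240-min replicate 2, 240-min replicate 3, quiescent replicate 2 and quiescent replicate 3 (adjusted p up to 0.153). Promoters (250 bases before to 50 after the annotated start of 5764 genes, both strands searched) held the PAC motif gatgag in 93.7% of the 111 assembly genes and 19.8% of all genes, and the RRPE motif aaaaattt in 82.9% and 14.6%. RRPE stood in 7.6% of the genes that were lower at 240 min and 16.6% of those that were higher. For PAC these shares were 17.9% and 16.2%.

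The rest of the translation apparatus rose less evenly. Of 21 cytosolic tRNA synthetases, which load amino acids on tRNAs, 17 rose and none fell (median 1.21). The glutamate enzyme GUS1 had 2005, 1945 and 2034 at 30 min and 7198, 6837 and 6897 at 240 min (1.81 ± 0.19 (SE), adjusted p = 6.85e-05). Of 46 translation factors 20 rose and 2 fell, with 11 without 30-min replicate 2, 12 without 30-min replicate 3 or 240-min replicate 2 and 13 without 240-min replicate 3. Translation factors numbered 6 higher and 3 lower under total-count scaling and 38 and 3 without replicate 1 of all groups. STM1, which clamps idle ribosomes and preserves them through starvation, had 5066, 2637 and 2767 at 30 min and 18767, 15730.0 and 15629.8 at 240 min (2.32 ± 0.33 (SE), adjusted p = 0.000402). The 2 that fell were LSO1 (-3.01 ± 0.73, adjusted p = 0.00986) and HEF3 (-1.79 ± 0.24, adjusted p = 0.000242). HEF3 encodes the spare copy of elongation factor eEF3, whose main copy YEF3 rose (0.99 ± 0.30, adjusted p = 0.0296); the YEF3 call was lost without 30-min replicate 2, 30-min replicate 3, 240-min replicate 1, 240-min replicate 2 and 240-min replicate 3 (adjusted p up to 0.124). Among regulators of growth, LST8 and the repressor of ribosomal protein genes CRF1 (-1.12 ± 0.18, adjusted p = 0.000671) fell and RAS2, the GTPase upstream of protein kinase A, rose (768 ± 85.9 at 30 min to 2519.6 ± 944 at 240 min, 1.66 ± 0.24 (SE), adjusted p = 0.000441). TOR1 and TOR2 had 0.27 ± 0.27 and 0.16 ± 0.19 (adjusted p = 0.501 and 0.583).

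**Figure D2:**
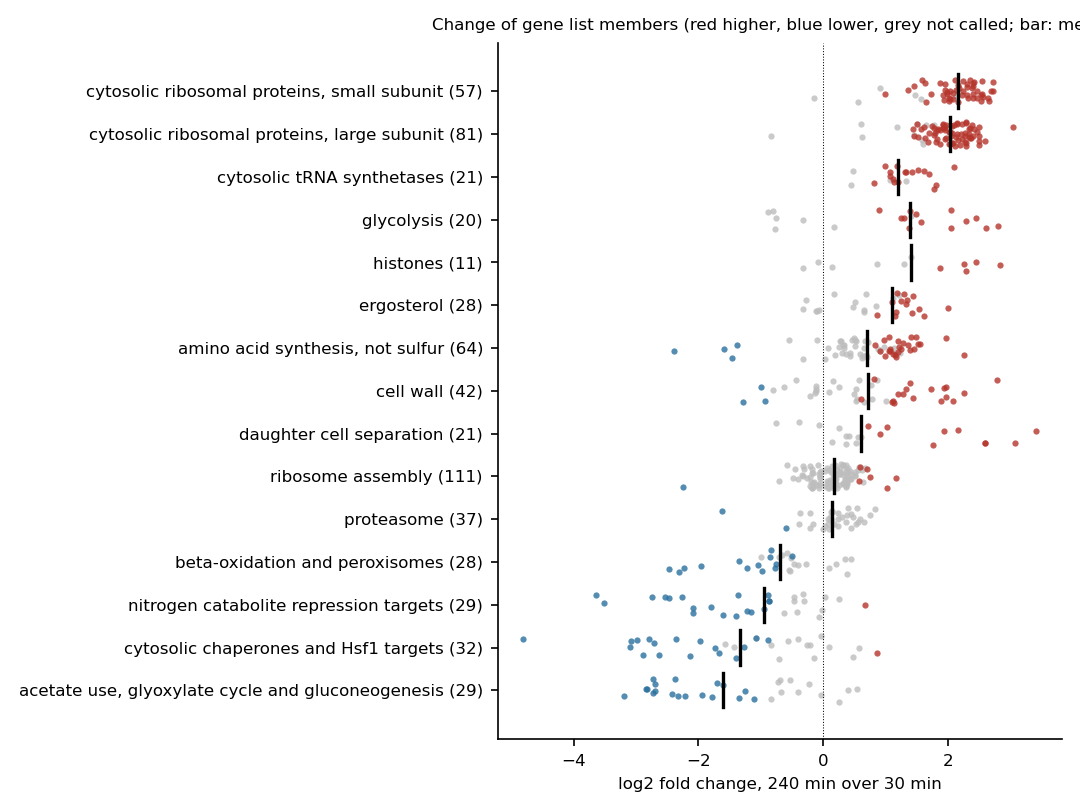
Log2 fold change of 240 min against 30 min (horizontal axis) of each tested member of gene lists (lines, number of members in brackets), with the median as a bar. Red points were called higher, blue lower and grey not called: the ribosomal protein genes lie around 2, the ribosome assembly genes near 0, and the acetate and chaperone genes mostly below 0.

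Transcripts of glucose transporters moved in different directions. HXT1, the carrier of lowest affinity (chrVIII:290913-292625, minus strand), had 573, 563 and 695 at 30 min and 5935, 5296 and 5200.5 at 240 min (3.17 ± 0.38 (SE), adjusted p = 0.000159). HXT3, another carrier of low affinity, had 2557, 3508 and 3951 at 30 min and 22472, 13341 and 13353 at 240 min (2.27 ± 0.31 (SE), adjusted p = 0.000301). HXT5, the carrier made in starved and slowly growing cells (chrVIII:294669-296447, minus strand), had 3596, 5392 and 5253 at 30 min and 781, 807 and 765 at 240 min (-2.57 ± 0.45 (SE), adjusted p = 0.00141), against 20013 in quiescent cells. For these 3 genes no library of one time overlapped the other, and HXT1 and HXT5, which moved in opposite directions, are neighbours 2043 bases apart. Per kilobase of gene, the transporter of highest level at 30 min was HXT2 (5297 per kb), followed by HXT5 (2668), HXT3 (1959) and HXT7 (1321). At 240 min it was HXT3 (9618), followed by HXT2 (7355), HXT1 (3197) and HXT4 (1404). The HXT4 level at 240 min rests on replicate 1, at 3011 per kb against 530 and 671 in replicates 2 and 3. HXT2, of high affinity, had 5796, 9207 and 10837 at 30 min and 20492, 6266 and 9118 at 240 min (adjusted p = 0.767), so its libraries overlapped and 240-min replicate 1 was the highest of the 6. Of 16 transporters 2 rose and 5 fell, the latter count being 1 without 30-min replicate 2 or 240-min replicate 1, 2 without 30-min replicate 3 or 240-min replicate 3 and 3 without 30-min replicate 1 or 240-min replicate 2 or quiescent replicate 2. Transporters numbered 2 higher and 8 lower without replicate 1 of all groups. Transporters of this family share much of their sequence, so the values of single members are uncertain where reads could be shared.

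Most genes of the glycolysis list rose in transcript level: 13 of 20 did so and none fell (median 1.38). Besides enzymes, the 20 include the regulators GCR1, GCR2 and TYE7. The list took 2.13% to 3.19% of the reads at 30 min and 6.27% to 7.72% at 240 min. Glycolytic genes numbered 9 higher and 3 lower under total-count scaling and 14 and 5 without replicate 1 of all groups. ENO2, the enolase used on glucose (chrVIII:451327-452640, plus strand), had 12719.9, 11694 and 12599 at 30 min and 78254, 93630.2 and 88075 at 240 min (2.81 ± 0.37 (SE), adjusted p = 0.000208). TDH3, the main glyceraldehyde-3-phosphate dehydrogenase, had 30046, 22262 and 24289.7 at 30 min and 141524, 140483 and 132699 at 240 min (2.45 ± 0.31 (SE), adjusted p = 0.000201). Neither gene had overlapping libraries, and neither was called different from log growth, where the means were 63802 ± 29876 and 213160.0 ± 24535. FBA1, the aldolase, had 47302, 19384 and 16279 at 30 min and 116835, 49179 and 48708 at 240 min (adjusted p = 0.067, or 0.00469 with the replicate block): it was higher at 240 min within each replicate, and replicate 1 was the highest at both times. HXK2, the hexokinase that also relays glucose repression, rose from 3219.8 ± 153 at 30 min to 9614 ± 1048 at 240 min (1.57 ± 0.18 (SE), adjusted p = 0.000127), while GLK1, the glucokinase, went from 10074 ± 176 at 30 min to 5705 ± 2218 at 240 min (-0.89 ± 0.49, adjusted p = 0.209).

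Some isozymes of carbon metabolism parted in their transcripts and others moved together. Of 67 pairs of related genes, from carbon metabolism and elsewhere, 14 had both members called in the same direction and 6 in opposite directions. In 27 pairs 1 member was called and in 20 neither. Over all genes tested 13.3% rose and 14.0% fell, and whether 6 opposite pairs exceed those of unrelated genes was not tested. Pairs called in the same direction included ENO2 with ENO1, PFK1 with PFK2, GPD2 with GPD1, HXT1 with HXT3, and CIT1 with CIT2. The 6 opposite pairs were GND1 and GND2, ADH1 and ADH2, ACS2 and ACS1, BAT1 and BAT2, CYC1 and CYC7, and YEF3 and HEF3. GND1, the main 6-phosphogluconate dehydrogenase of the pentose phosphate pathway, had 1177, 1866 and 1915 at 30 min and 7372, 14699 and 13482 at 240 min (2.81 ± 0.32 (SE), adjusted p = 0.000112). GND2 had 926, 602 and 579 at 30 min and 268, 342 and 292 at 240 min (-1.20 ± 0.39 (SE), adjusted p = 0.0397). Thus one copy was higher and the other lower in every library of 240 min, and their log2 changes differed by 4.01 (3.79 to 4.43 in the 3 replicates). The GND2 call was lost without 30-min replicate 1, 30-min replicate 2, 30-min replicate 3, 240-min replicate 1, 240-min replicate 2, 240-min replicate 3 and quiescent replicate 3 (adjusted p up to 0.132). ADH1, which makes ethanol, rose from 31289 ± 1457 at 30 min to 128313 ± 30732 at 240 min (2.01 ± 0.40 (SE), adjusted p = 0.00336) and ADH2, which oxidises it, fell from 4052 ± 925 at 30 min to 1041 ± 158 at 240 min (-1.95 ± 0.40 (SE), adjusted p = 0.00364), a difference of 3.95 (3.75 to 4.16 in the 3 replicates). ACS2, the acetyl-CoA synthetase used on glucose, rose from 709 ± 158 at 30 min to 3096 ± 383 at 240 min (2.14 ± 0.26 (SE), adjusted p = 0.000165) and ACS1, the form used on acetate, fell from 954 ± 69.2 at 30 min to 293 ± 10.7 at 240 min (-1.70 ± 0.32 (SE), adjusted p = 0.00246), a difference of 3.84 (3.64 to 4.13 in the 3 replicates).

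The same split ran through the transaminases of branched-chain amino acids and the cytochromes c. Mitochondrial BAT1 had 1.46 ± 0.24 and cytosolic BAT2 -1.47 ± 0.23 (adjusted p = 0.0009 and 0.000726), a difference of 2.92 (2.501 to 3.39 in the 3 replicates). The aerobic form CYC1 had 1.16 ± 0.34 and CYC7 -1.85 ± 0.58 (adjusted p = 0.0258 and 0.0338). The CYC1 call was lost without 30-min replicate 2, 30-min replicate 3 and 240-min replicate 1 (adjusted p up to 0.0988) and the CYC7 call without 30-min replicate 1, 30-min replicate 2, 30-min replicate 3, 240-min replicate 1, 240-min replicate 2 and 240-min replicate 3 (adjusted p up to 0.0892). CYC7 ends 179 bases from the end of UTR2, a wall gene that faces it and rose (2.79 ± 0.36), and without knowledge of strand in the counting their reads at the shared end are uncertain. Pyruvate kinase CDC19 and its minor copy PYK2 differed by 3.42 (2.67 to 3.99 in the 3 replicates), and TDH3 and TDH1 by 3.21 (2.67 to 3.53 in the 3 replicates), with PYK2 and TDH1 themselves not called (adjusted p = 0.105 and 0.0893; TDH1 0.0484 with the replicate block).

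**Figure D3:**
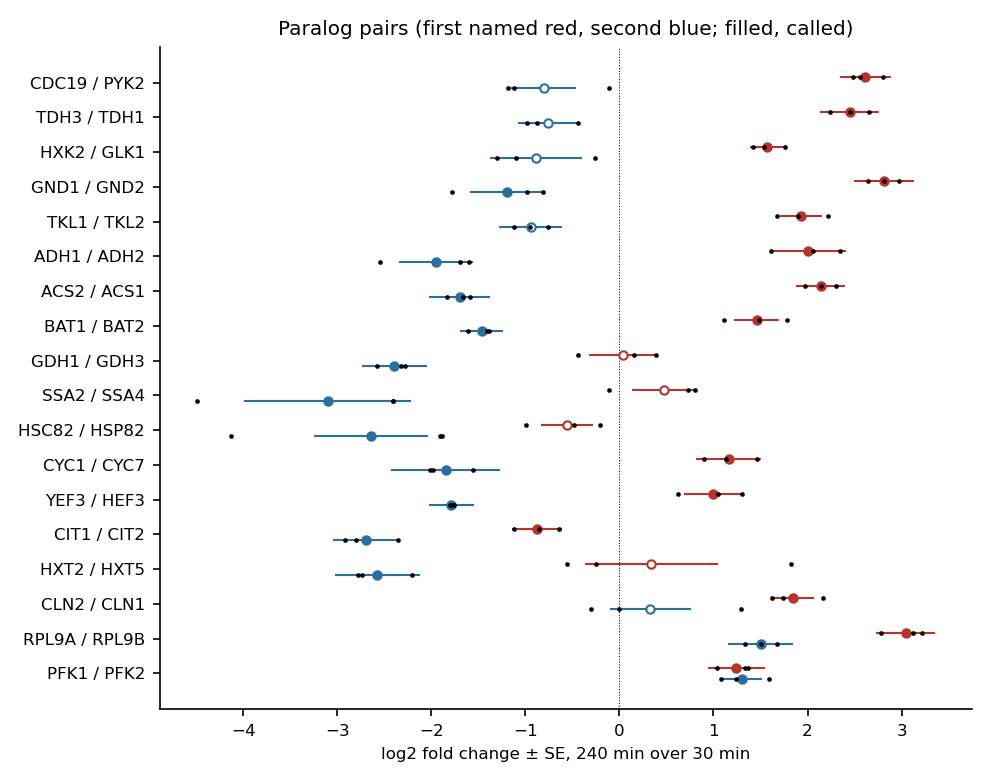
Log2 change from 30 to 240 min of both members of pairs of related genes (horizontal axis, coloured circles with ± SE, red for the first gene and blue for the second, filled where called), 1 pair per line, with the change within each replicate as black dots. In the opposite pairs, such as GND1 with GND2, ADH1 with ADH2 and ACS2 with ACS1, the members lie on different sides of 0.

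Genes for acetate use fell together. Of 29 genes for acetate uptake, the glyoxylate cycle and the making of sugar, 18 fell and none rose (median -1.61). At 240 min 11 of the 29 were still higher than in log growth and 1 was lower, where 4.09% of all genes were higher and 3.27% lower. The listed acetate genes took 1.27% to 1.57% of the reads at 30 min and 0.291% to 0.307% at 240 min. ADY2, the acetate transporter (chrIII:132273-133124, minus strand), had 9744, 17966 and 15374 at 30 min and 1329, 2469.7 and 2303 at 240 min (-2.82 ± 0.41 (SE), adjusted p = 0.000426). Its mean was 86196 in quiescent cells and 152 in log growth, so the 240-min libraries lay between those 2 states. SIP4, an activator of sugar-making genes, had 2679.5, 4538 and 3898 at 30 min and 405, 414 and 363 at 240 min (-3.20 ± 0.28 (SE), adjusted p = 3.46e-05). CRC1, which carries acetyl groups as carnitine esters into mitochondria, had 2749, 2878 and 2851 at 30 min and 357, 407 and 415 at 240 min (-2.85 ± 0.27 (SE), adjusted p = 4.12e-05). The carnitine acetyltransferases YAT1 and YAT2 had -2.73 ± 0.44 and -2.38 ± 0.25 (adjusted p = 0.000868 and 6.85e-05). CIT2, the citrate synthase of the peroxisome, fell from 11182 ± 2923 at 30 min to 1693 ± 168 at 240 min (-2.69 ± 0.35 (SE), adjusted p = 0.000208). Of 15 citric acid cycle genes 1 fell, CIT1 (-0.87 ± 0.26 (SE), adjusted p = 0.0282), a call lost without 30-min replicate 1, 30-min replicate 2, 240-min replicate 2 and 240-min replicate 3 (adjusted p up to 0.119). Cycle genes numbered 0 higher and 3 lower under total-count scaling and 2 and 5 without replicate 1 of all groups.

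Many nuclear genes of the respiratory chain were below log growth at 240 min. Of 36 tested, 18 were lower at 240 min than in log growth and 1 was higher. Over all genes tested 3.27% were lower than in log growth and 4.09% higher. Against 30 min 2 rose, CYC1 and ATP16, and 2 fell, CYC7 and QCR9. Respiratory genes numbered 4 higher and 3 lower with the replicate block, 0 and 15 under total-count scaling and 6 and 8 without replicate 1 of all groups. The ATP16 call was lost without 30-min replicate 2, 30-min replicate 3, 240-min replicate 2 and 240-min replicate 3 (adjusted p up to 0.103), and the QCR9 call without 30-min replicate 1, 30-min replicate 2, 30-min replicate 3, 240-min replicate 1, 240-min replicate 2, 240-min replicate 3, quiescent replicate 1, quiescent replicate 2 and quiescent replicate 3 (adjusted p up to 0.135). QCR9, a small subunit of complex III, had 945, 925 and 1065 at 30 min and 455, 589.8 and 492 at 240 min, against 1851 ± 875 in log growth.

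Genes for fatty acid breakdown fell in transcript level beside the acetate genes. Of 28 genes for beta-oxidation and peroxisomes 13 fell and none rose (median -0.69). They numbered 0 higher and 21 lower under total-count scaling and 2 and 22 without replicate 1 of all groups. POT1, the thiolase that releases acetyl-CoA, had 1228, 2425 and 1994 at 30 min and 208, 427 and 391 at 240 min (-2.47 ± 0.38 (SE), adjusted p = 0.000651). CTA1, the peroxisomal catalase, had 2959.8, 4519 and 4121 at 30 min and 631, 916 and 919 at 240 min (-2.23 ± 0.25 (SE), adjusted p = 8.95e-05). Both were lower in every 240-min library than in any 30-min library and still above log growth by the same test (117 ± 51.6 and 336 ± 69.1). Several transcripts for fatty acid synthesis moved the other way. Both subunits of fatty acid synthase rose, FAS1 from 2776 ± 894 at 30 min to 10344 ± 1439.6 at 240 min (1.95 ± 0.29 (SE), adjusted p = 0.000519) and FAS2 from 1678 ± 272 at 30 min to 8494 ± 446 at 240 min (2.35 ± 0.25 (SE), adjusted p = 6.33e-05), as did acetyl-CoA carboxylase ACC1 (1.81 ± 0.28, adjusted p = 0.000573) and the desaturase OLE1 (2.13 ± 0.34, adjusted p = 0.000731). In the list of 38 genes for fatty acids and phospholipids 14 rose and 3 fell. The lower count was 0 without 240-min replicate 2 or 240-min replicate 3, 1 without 30-min replicate 2 or 30-min replicate 3 or 240-min replicate 1 and 6 without log-growth replicate 1. Lipid synthesis genes numbered 16 higher and 6 lower with the replicate block, 6 and 10 under total-count scaling and 19 and 8 without replicate 1 of all groups.

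**Figure D4:**
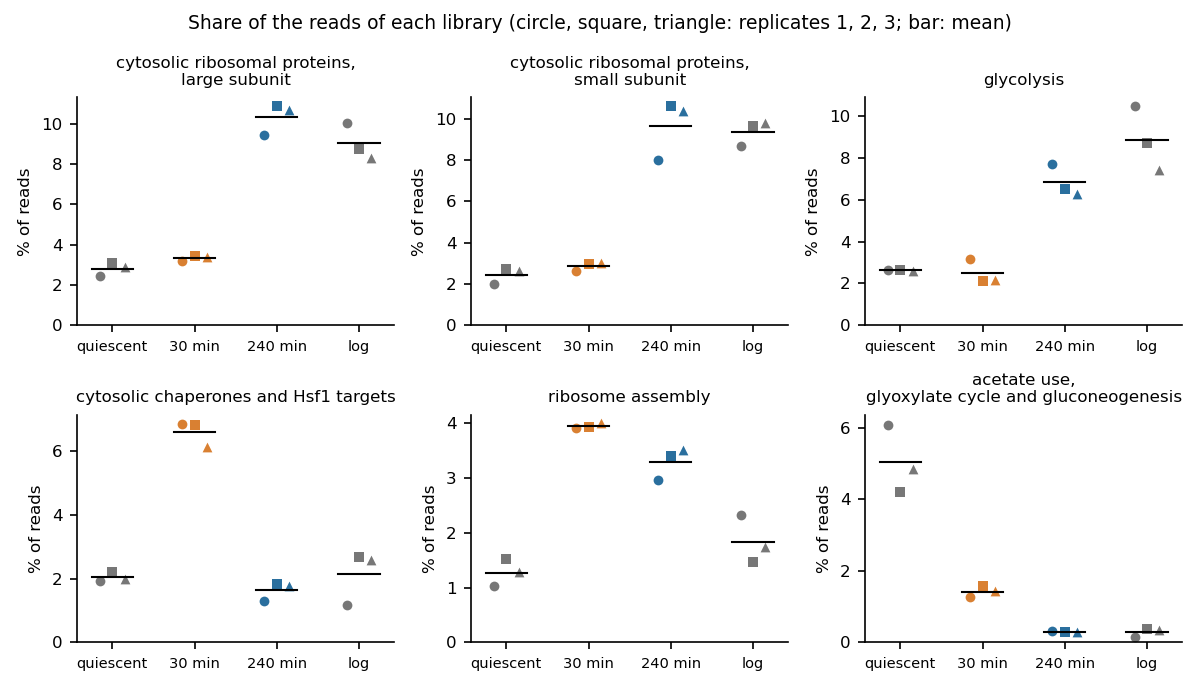
Percent of the reads of each library (vertical axis) taken by gene lists, in the 12 libraries by group (circle, square and triangle for replicates 1, 2 and 3, bar for the mean). At 240 min the ribosomal protein and glycolysis shares lie above those of 30 min and the chaperone, ribosome assembly and acetate shares below, with no overlap between the 3 libraries at each time.

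Chaperone transcripts fell from a high level at 30 min. Of 32 cytosolic chaperones and known Hsf1 targets 17 fell and 1 rose (median -1.34), with 11 without 240-min replicate 1. Cytosolic chaperones numbered 3 higher and 22 lower without replicate 1 of all groups. The member that rose was SBA1, a co-chaperone of Hsp90 (0.86 ± 0.22 (SE), adjusted p = 0.0122), a call lost without 30-min replicate 3, 240-min replicate 2 and 240-min replicate 3 (adjusted p up to 0.055). The list took 6.12% to 6.86% of the reads at 30 min and 1.29% to 1.82% at 240 min, and 1.93% to 2.21% in quiescent cells. Promoters of BTN2, a sorting factor for misfolded proteins, of FES1, the exchange factor of the cytosolic Hsp70s, and of LST8, a TOR subunit whose promoter faces that of the Hsp40 gene SIS1, are printed as examples from the 15 largest decreases. Capitals mark the short heat shock element ttcnngaa. The bases are those of the R64 reference, build sacCer3, written 5′ to 3′ on the strand of the gene from 250 bases before to 50 after its start, and a match is a description only.
BTN2 (chrVII:772204-772503, plus strand): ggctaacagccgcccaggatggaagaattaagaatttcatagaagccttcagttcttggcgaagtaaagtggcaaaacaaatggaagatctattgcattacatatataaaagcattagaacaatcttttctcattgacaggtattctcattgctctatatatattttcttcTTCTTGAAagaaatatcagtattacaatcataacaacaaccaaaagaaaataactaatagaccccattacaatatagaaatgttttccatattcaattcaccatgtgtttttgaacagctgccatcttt
FES1 (chrII:444644-444943, minus strand): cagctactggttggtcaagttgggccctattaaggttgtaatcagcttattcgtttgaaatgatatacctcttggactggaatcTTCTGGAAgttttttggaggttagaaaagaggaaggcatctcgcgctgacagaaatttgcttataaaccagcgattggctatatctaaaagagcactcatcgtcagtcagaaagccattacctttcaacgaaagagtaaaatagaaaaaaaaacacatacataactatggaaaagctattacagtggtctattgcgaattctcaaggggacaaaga
LST8 (chrXIV:619817-620116, plus strand): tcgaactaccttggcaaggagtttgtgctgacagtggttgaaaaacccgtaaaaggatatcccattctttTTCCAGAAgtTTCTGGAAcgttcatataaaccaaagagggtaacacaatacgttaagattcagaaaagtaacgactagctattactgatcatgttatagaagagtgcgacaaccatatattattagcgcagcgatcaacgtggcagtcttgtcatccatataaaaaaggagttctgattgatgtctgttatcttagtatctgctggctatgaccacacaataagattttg
The element begins 79 bases before the start in BTN2, 166 in FES1, and 180 and 170 in LST8. It stood in 50% of the promoters of the 32 chaperone genes and in 13.0% of all 5764 promoters. Among all lower genes its share was 14.6% and among all higher ones 14.0%. The promoter of SSA4, also among the 15 largest decreases, held no match. The median change was -1.34 in listed genes with the element and -1.32 in those without.

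The decreases at these genes were large. BTN2 had 70999, 90366 and 67252 at 30 min and 1036, 4496 and 4187 at 240 min (-4.81 ± 0.55 (SE), adjusted p = 0.000105). FES1 had 11759, 17408 and 14023 at 30 min and 1109, 1992 and 2116 at 240 min (-3.09 ± 0.38 (SE), adjusted p = 0.000168). LST8 had 6221, 12473 and 11067 at 30 min and 614, 1512 and 1303 at 240 min (-3.16 ± 0.47 (SE), adjusted p = 0.000507). In all 3 genes the libraries of the 2 times lay apart, and replicate 1 had the lowest value at 240 min. SIS1, which starts 501 bases from LST8 on the other strand, fell from 18522 ± 3459.7 at 30 min to 4574 ± 2096 at 240 min (-2.13 ± 0.53 (SE), adjusted p = 0.0113). Inducible members of a chaperone family fell where the constitutive ones did not pass the test: HSP82 had -2.64 ± 0.61 (adjusted p = 0.0073) and HSC82 -0.56 ± 0.28 (0.164), so that HSC82 exceeded HSP82 by 2.08 (1.40 to 3.14 in the 3 replicates). SSA4 had 31607, 48884 and 43370.5 at 30 min and 1402, 9229.6 and 8195 at 240 min (-3.10 ± 0.89 (SE), adjusted p = 0.0225), a call lost without 30-min replicate 2, 30-min replicate 3 and 240-min replicate 1 (adjusted p up to 0.0909), and its relative SSA2 had 0.47 ± 0.34 (adjusted p = 0.334), so that SSA2 exceeded SSA4 by 3.58 (3.14 to 4.38 in the 3 replicates). SSA1 had 23374, 22483 and 21046 at 30 min and 4876, 11120.1 and 10426 at 240 min (adjusted p = 0.14, or 0.0357 with the replicate block).

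Chaperones elsewhere in the cell were mixed. Of 11 mitochondrial chaperones 2 fell, HSP78 and MDJ1, and 1 rose, the Hsp70 exchange factor MGE1 (1.03 ± 0.27 (SE), adjusted p = 0.0156), a call lost without 30-min replicate 2, 240-min replicate 2 and 240-min replicate 3 (adjusted p up to 0.0595). Mitochondrial chaperones numbered 0 higher and 6 lower under total-count scaling. HSP78, the disaggregase of mitochondria, had 14079, 12551 and 11476 at 30 min and 1407, 2606 and 2262 at 240 min (-2.64 ± 0.47 (SE), adjusted p = 0.00155), and the mitochondrial Hsp40 MDJ1 had -2.02 ± 0.37 (adjusted p = 0.00177). Of the 9 chaperones that sit on ribosomes 4 rose and 1 fell, with 2 without 30-min replicate 2 or 30-min replicate 3 or 240-min replicate 1. Ribosome-bound chaperones numbered 2 higher and 2 lower under total-count scaling. EGD1, a subunit of the nascent chain complex, rose from 1719 ± 99.1 at 30 min to 5914 ± 568 at 240 min (1.78 ± 0.29 (SE), adjusted p = 0.000831). SSB1, an Hsp70 of nascent chains, had 1.87 ± 0.42 (adjusted p = 0.00688). Of 22 genes for protein folding and entry in the endoplasmic reticulum 4 rose and 1 fell (median 0.26, or -0.19 under total-count scaling). The higher count was 1 without 240-min replicate 2, 2 without 30-min replicate 1 or 30-min replicate 2 or 240-min replicate 3 and 7 without log-growth replicate 1. These genes numbered 0 higher and 2 lower under total-count scaling and 10 and 4 without replicate 1 of all groups. Those that rose were the chaperone LHS1 (0.66 ± 0.16, adjusted p = 0.0107), the isomerase FPR2 (0.89 ± 0.21, adjusted p = 0.00779), and SEC61 (1.03 ± 0.35, adjusted p = 0.0471) and SEC63 (1.07 ± 0.31, adjusted p = 0.0249) of the entry channel. The SEC61 call was lost without 30-min replicate 1, 30-min replicate 2, 30-min replicate 3, 240-min replicate 1, 240-min replicate 2, 240-min replicate 3, quiescent replicate 2, quiescent replicate 3 and log-growth replicate 2 (adjusted p up to 0.147). The SEC63 call was lost without 30-min replicate 1, 30-min replicate 2, 240-min replicate 2 and 240-min replicate 3 (adjusted p up to 0.0958), and the LHS1 call without 240-min replicate 2 (adjusted p up to 0.0531). The one that fell was ERO1, which drives disulfide formation, with a drop from 4401 ± 743 at 30 min to 1439.9 ± 40.8 at 240 min (-1.60 ± 0.21 (SE), adjusted p = 0.000208). Of 37 proteasome genes none rose and 2 fell: RPN4 (-1.62 ± 0.33 (SE), adjusted p = 0.00344), the activator of proteasome genes, and UFD1 (-0.60 ± 0.18, adjusted p = 0.0259), whose call was lost without 30-min replicate 1, 30-min replicate 2, 240-min replicate 2 and 240-min replicate 3 (adjusted p up to 0.0976). The higher count was 1 without log-growth replicate 3, 2 without quiescent replicate 1, 3 without 30-min replicate 1 and 5 without log-growth replicate 1. Proteasome genes numbered 3 higher and 2 lower with the replicate block and 17 and 4 without replicate 1 of all groups. The Rpn4 motif ggtggcaaa stood in 75.7% of the 37 proteasome promoters and 1.2% of all, and the list median was 0.14, or -0.31 under total-count scaling and -0.025 within replicate 1.

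Genes for poor nitrogen sources fell. Of 29 targets of nitrogen catabolite repression 18 fell and 1 rose (median -0.95). The one that rose was UGA1, an enzyme of GABA use (0.66 ± 0.19, adjusted p = 0.0216), a call lost without 30-min replicate 1, 30-min replicate 3 and 240-min replicate 1 (adjusted p up to 0.0709). GAP1 encodes the general amino acid permease and MEP2 the ammonium transporter of high affinity. Their promoters, from the same reference, are printed with the core GATA motif gataag, or its complement on the other strand, in capitals.
GAP1 (chrXI:514813-515112, plus strand): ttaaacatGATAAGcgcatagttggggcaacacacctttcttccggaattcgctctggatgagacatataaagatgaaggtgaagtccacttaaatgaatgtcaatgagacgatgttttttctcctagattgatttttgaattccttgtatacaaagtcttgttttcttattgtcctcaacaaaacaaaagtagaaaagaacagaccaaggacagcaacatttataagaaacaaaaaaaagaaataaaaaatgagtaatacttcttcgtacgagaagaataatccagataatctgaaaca
MEP2 (chrXIV:357203-357502, plus strand): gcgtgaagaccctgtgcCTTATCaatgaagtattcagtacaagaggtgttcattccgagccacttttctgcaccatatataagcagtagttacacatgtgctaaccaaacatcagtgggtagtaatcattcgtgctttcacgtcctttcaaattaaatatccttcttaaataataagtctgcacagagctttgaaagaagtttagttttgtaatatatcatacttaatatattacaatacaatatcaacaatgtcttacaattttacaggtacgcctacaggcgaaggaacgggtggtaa
The motif begins 242 bases before the start in GAP1 and 233 in MEP2. It stood in 41.4% of the 29 listed promoters and 14.5% of all promoters, in 19.4% of the lower genes and 12% of the higher ones. Listed genes with it had a median of -1.38 and those without it -0.86.

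GAP1 had 9168, 10813 and 10662 at 30 min and 448, 1116 and 1091 at 240 min (-3.64 ± 0.50 (SE), adjusted p = 0.000301). MEP2 had 13134, 11076 and 10801 at 30 min and 652, 1297 and 1232 at 240 min (-3.52 ± 0.71 (SE), adjusted p = 0.0036). Both were lower in all 240-min libraries, and replicate 1 was the lowest of the 3. The other ammonium transporters MEP1 and MEP3 fell less, with log2 changes of -1.79 ± 0.29 and -1.39 ± 0.28 (adjusted p = 0.000794 and 0.00357). PUT4, the proline permease, had 1119, 1634 and 1640.0 at 30 min and 198, 238 and 210.3 at 240 min (-2.74 ± 0.31 (SE), adjusted p = 9.07e-05), still above log growth (57.2 ± 19.8). Among the regulators, GAT1, a GATA activator, fell from 1324 ± 166 at 30 min to 342 ± 23.2 at 240 min (-1.94 ± 0.27 (SE), adjusted p = 0.000314). GLN3, the other activator, had -0.31 ± 0.22 (adjusted p = 0.342) and the repressor GZF3 -0.55 ± 0.24 (adjusted p = 0.102, or 0.0291 with the block). Of 19 nitrogen regulators 3 fell, with 1 without 30-min replicate 2 or 30-min replicate 3 or 240-min replicate 2 or 240-min replicate 3. Nitrogen regulators numbered 1 higher and 6 lower with the replicate block, 0 and 10 under total-count scaling and 3 and 7 without replicate 1 of all groups. Of 17 amino acid permeases of rich medium 8 fell and 1 rose (median -0.73). DIP5, the carrier of acidic amino acids, fell (6416 ± 960.1 at 30 min to 1249 ± 278 at 240 min, -2.37 ± 0.44 (SE), adjusted p = 0.00208). The one that rose was BAP3, for branched-chain amino acids (637 ± 229 at 30 min to 1970.3 ± 176 at 240 min, 1.70 ± 0.38 (SE), adjusted p = 0.00651). Permeases numbered 4 higher and 10 lower without replicate 1 of all groups.

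Transcripts for amino acid synthesis rose in part. Of 64 genes outside the sulfur pathways 25 rose and 4 fell (median 0.71). Synthesis genes numbered 11 higher and 5 lower under total-count scaling and 52 and 4 without replicate 1 of all groups. HIS4, an enzyme of several steps in histidine synthesis, had 1254, 1627 and 1815 at 30 min and 8184, 6979.6 and 7196 at 240 min (2.26 ± 0.27 (SE), adjusted p = 0.000136). ILV3, of the branched-chain pathway, had 1.97 ± 0.28 (adjusted p = 0.000406). GCN4, the activator of these genes, had 0.16 ± 0.26 (adjusted p = 0.695) at the transcript level. Its motif tgactc stood in 53.1% of the listed promoters and 8.2% of all, in 9.4% of the higher genes and 9.3% of the lower ones. GDH3, the glutamate dehydrogenase of cells without glucose, fell from 3050.2 ± 502 at 30 min to 589.5 ± 154 at 240 min (-2.39 ± 0.35 (SE), adjusted p = 0.000417) while GDH1 had 0.03 ± 0.36 (adjusted p = 0.958). In the sulfur pathways 9 of 27 genes fell and 3 rose. Sulfur genes numbered 0 higher and 15 lower under total-count scaling and 5 and 14 without replicate 1 of all groups. MET32, an activator of the pathway, had 1796, 1457 and 1416 at 30 min and 194, 318 and 329.7 at 240 min (-2.499 ± 0.26 (SE), adjusted p = 5.65e-05). STR3, which makes homocysteine from cystathionine, had -2.57 ± 0.30 (adjusted p = 0.000119).

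For nucleotides, IMD2, an inosine monophosphate dehydrogenase at the entry to GTP, had 444, 349 and 339 at 30 min and 3495, 2029 and 1987 at 240 min (2.69 ± 0.26 (SE), adjusted p = 4.18e-05). IMD2 was higher in replicate 1 than in replicates 2 and 3 at 240 min, and no library overlapped those of 30 min. Its relative IMD4 rose as well (1.47 ± 0.20, adjusted p = 0.0003). Of 29 genes for purines and one-carbon units 8 rose and 1 fell, the higher count being 3 without 240-min replicate 2 or 240-min replicate 3, 4 without 30-min replicate 2 or 30-min replicate 3, 5 without 30-min replicate 1 or 240-min replicate 1 and 14 without log-growth replicate 1. Purine and one-carbon genes numbered 3 higher and 2 lower under total-count scaling and 20 and 3 without replicate 1 of all groups. The one that fell was FDH1, formate dehydrogenase, with 295, 749 and 792 at 30 min and 13.9, 41.5 and 38 at 240 min (-4.26 ± 0.64 (SE), adjusted p = 0.000503). FUR1, which salvages uracil, rose (1.37 ± 0.20, adjusted p = 0.000415) and FUR4, the uracil permease, fell (-1.01 ± 0.17, adjusted p = 0.000943).

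Membrane and wall genes rose. Of 28 genes for ergosterol, the sterol of yeast membranes, 14 rose and none fell (median 1.11). Ergosterol genes numbered 11 higher and 2 lower under total-count scaling and 22 and 1 without replicate 1 of all groups. ERG13, which makes HMG-CoA, had 799.7, 456 and 555 at 30 min and 2969, 2058 and 2134 at 240 min (2.00 ± 0.30 (SE), adjusted p = 0.000548), and of the HMG-CoA reductases HMG1 rose (1.54 ± 0.23, adjusted p = 0.000466) where HMG2 had 0.17 ± 0.22 (adjusted p = 0.624). PMA1, the proton pump of the plasma membrane, had 11808, 19184 and 21027 at 30 min and 37787, 77158 and 69703 at 240 min (1.80 ± 0.40 (SE), adjusted p = 0.00562). Of 42 wall genes 18 rose and 3 fell, the latter 1 without 30-min replicate 2 or 30-min replicate 3 or 240-min replicate 3. Wall genes numbered 23 higher and 5 lower with the replicate block, 13 and 7 under total-count scaling and 24 and 6 without replicate 1 of all groups. PIR1, a covalently bound wall protein, had 364, 731 and 709 at 30 min and 3827, 2362 and 2332 at 240 min (2.27 ± 0.30 (SE), adjusted p = 0.00025). CWP2, a mannoprotein, had 2.08 ± 0.25 (adjusted p = 0.000155) and remained below log growth (21817 ± 6252). UTR2, which links chitin to glucan, had 594, 449.9 and 454 at 30 min and 3241, 3613 and 3428 at 240 min (2.79 ± 0.36 (SE), adjusted p = 0.000208).

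Genes of cell division did not move as one. EGT2, a wall protein for the parting of mother and daughter (chrXIV:24048-27173, plus strand), had 131, 234 and 256 at 30 min and 2524, 2099 and 1841 at 240 min (3.42 ± 0.27 (SE), adjusted p = 3.46e-05). CTS1, the chitinase of that step, had 826, 559.9 and 609.7 at 30 min and 7474, 4846 and 4751 at 240 min (3.08 ± 0.28 (SE), adjusted p = 3.92e-05). DSE4, a daughter-specific glucanase, had 152, 214 and 230.0 at 30 min and 924, 1459 and 1250.1 at 240 min (2.60 ± 0.23 (SE), adjusted p = 3.46e-05). For each of these 3 genes every 240-min library lay above every 30-min library, as the rule for naming them required. Of the 21 genes of daughter separation 10 rose and none fell. Separation genes numbered 7 higher and 2 lower under total-count scaling and 11 and 2 without replicate 1 of all groups. ASH1, the daughter-specific repressor of mating-type switching, rose too (267 ± 69 at 30 min to 1046 ± 374 at 240 min, 1.94 ± 0.29 (SE), adjusted p = 0.00048).

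Calls at genes for entry into the cycle, DNA replication and mitosis are given beside all genes tested, of which 13.3% rose and 14.0% fell. Whether these lists differ from those shares was not tested. Of 21 genes of Start, the commitment to division, and of the G1/S step 1 rose, the G1 cyclin CLN2, with 149.8, 179 and 186 at 30 min and 674, 599.5 and 577 at 240 min (1.84 ± 0.23 (SE), adjusted p = 0.000184). Genes of this list numbered 3 higher and 2 lower with the replicate block, 1 and 4 under total-count scaling and 5 and 5 without replicate 1 of all groups. CLN1, CLN3 and SIC1 had 0.33 ± 0.43, 0.42 ± 0.29 and 0.69 ± 0.31 (adjusted p = 0.618, 0.311 and 0.121; SIC1 0.0379 with the block). Those that fell were the S-phase cyclin CLB6 (-1.20 ± 0.42, adjusted p = 0.0492, or 0.0508 with the block) and NRM1 (-0.88 ± 0.29, adjusted p = 0.0417). The calls were lost without 30-min replicate 1, 30-min replicate 2, 30-min replicate 3, 240-min replicate 1, 240-min replicate 2, 240-min replicate 3, quiescent replicate 2, quiescent replicate 3 and log-growth replicate 3 (adjusted p up to 0.154) for CLB6, and without 30-min replicate 1, 30-min replicate 2, 30-min replicate 3, 240-min replicate 1, 240-min replicate 2, 240-min replicate 3, quiescent replicate 3 and log-growth replicate 2 (adjusted p up to 0.126) for NRM1. In DNA replication and cohesion 4 of 46 genes rose and 4 fell, with 7 without log-growth replicate 1 for the first and 2 without 30-min replicate 2 or 30-min replicate 3 or 240-min replicate 1 for the second. Replication genes numbered 2 higher and 11 lower under total-count scaling and 15 and 5 without replicate 1 of all groups. CDC6, which loads the replicative helicase, fell (222 ± 30.4 at 30 min to 102 ± 15.9 at 240 min, -1.11 ± 0.26 (SE), adjusted p = 0.00806). Of 30 mitotic genes 1 fell, the spindle protein ASE1 (1309.7 ± 175 at 30 min to 419 ± 136 at 240 min, -1.68 ± 0.37 (SE), adjusted p = 0.0062), and none rose. Mitotic genes numbered 0 higher and 4 lower under total-count scaling and 1 and 12 without replicate 1 of all groups.

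Histone transcripts rose where they were called. Of 11 histone genes 5 rose and none fell (median 1.41), and 8 without log-growth replicate 1. Histone genes numbered 8 higher and 0 lower with the replicate block and 8 and 0 without replicate 1 of all groups. They took 0.317% to 0.393% of the reads at 30 min and 0.705% to 0.825% at 240 min. The H2A genes differed: HTA2 had 1161, 1914 and 1824 at 30 min and 9626, 12636 and 12038 at 240 min (2.83 ± 0.28 (SE), adjusted p = 4.65e-05). HTA1 had 5741, 7451 and 7788 at 30 min and 9168, 15139 and 14398 at 240 min (adjusted p = 0.0555, or 0.00516 with the block). HTA1 was higher at 240 min in every replicate, yet its change was smaller, with HTA1 minus HTA2 at -1.97 (-2.38 to -1.70 in the 3 replicates). HHT1, a gene for H3, had 936, 382 and 380.2 at 30 min and 5758, 1978 and 1995 at 240 min (2.46 ± 0.56 (SE), adjusted p = 0.00711), and its replicate 1 was the highest at both times. Copies of a histone gene are alike in their coding sequence, so reads may have been shared.

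**Figure D5:**
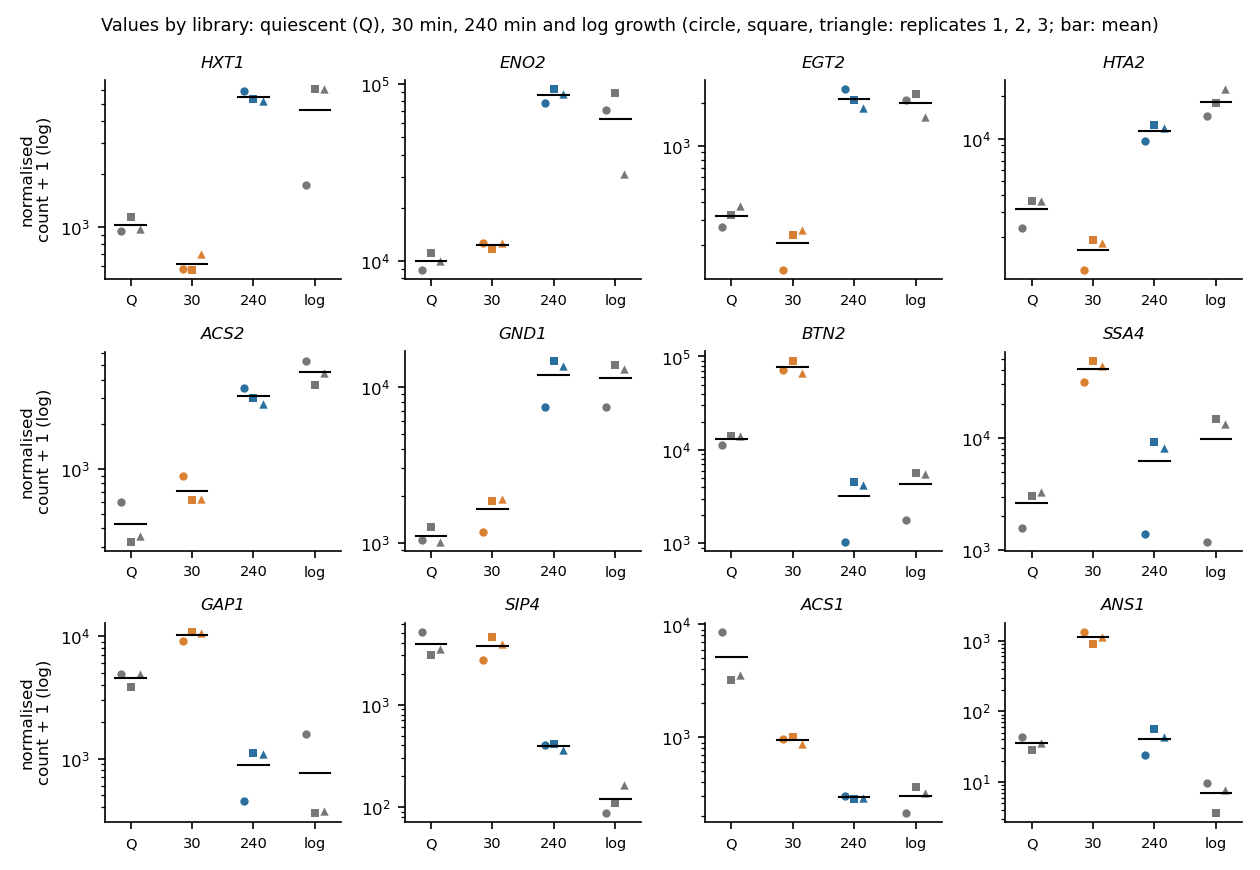
Normalised read count + 1 (vertical axes, log scale, each with its own range) in the 12 libraries for 12 genes, by group (circle, square and triangle for replicates 1, 2 and 3, bar for the mean). In all 12 the libraries of 30 min and 240 min do not overlap, and in BTN2, SSA4 and GAP1 replicate 1 is the lowest at 240 min.

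Genes that supply and use acetyl groups on chromatin bear on the study's subject, the transfer of acetate to histones. Of 24 genes of acetyl-CoA supply 5 rose and 5 fell, with 9 without log-growth replicate 1. Supply genes numbered 12 higher and 7 lower without replicate 1 of all groups. Besides the fall of the ACS1 transcript and the rise of ACS2, ALD5, a mitochondrial aldehyde dehydrogenase, rose (2214 ± 216 at 30 min to 5346 ± 349 at 240 min, 1.27 ± 0.17 (SE), adjusted p = 0.00028), above log growth (2175 ± 249.5). Of 39 subunits of histone acetyltransferases 4 rose and 4 fell. The first count was 1 without 30-min replicate 2 or 30-min replicate 3 or 240-min replicate 2 and 2 without 240-min replicate 1 or 240-min replicate 3, and the second was 10 without log-growth replicate 1. Acetyltransferase genes numbered 5 higher and 10 lower with the replicate block, 1 and 15 under total-count scaling and 8 and 12 without replicate 1 of all groups. The catalytic subunits GCN5 and ESA1 had 998, 1003 and 992 at 30 min and 1026, 1027 and 1031 at 240 min and 882, 796 and 739.9 at 30 min and 668, 571 and 556 at 240 min (0.04 ± 0.15 and -0.43 ± 0.26, adjusted p = 0.864 and 0.255). GCN5 thus lay within a narrow band in all 6 libraries. TRA1, the scaffold shared by the SAGA and NuA4 complexes, rose (489.7 ± 71 at 30 min to 1135 ± 49.7 at 240 min, 1.22 ± 0.19 (SE), adjusted p = 0.000615), and EAF3 (-0.99 ± 0.25, adjusted p = 0.0114) and YNG1 (-1.24 ± 0.27, adjusted p = 0.00548), readers of methylated histone H3, fell. Of 35 genes of deacetylase complexes 1 rose, ASH1, and 3 fell, EAF3, UME6 and HST1, with 1 without 30-min replicate 1 or 30-min replicate 2 or 30-min replicate 3 or 240-min replicate 1 or 240-min replicate 2 or 240-min replicate 3. Deacetylase genes numbered 1 higher and 11 lower under total-count scaling and 7 and 12 without replicate 1 of all groups. RPD3 and HDA1 had 0.08 ± 0.30 and 0.36 ± 0.24 (adjusted p = 0.869 and 0.297).

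Stress and storage genes differed between replicates. Of 37 general stress genes 10 fell and 3 rose, with lower counts of 4 without 30-min replicate 2 or 240-min replicate 2 or 240-min replicate 3, 5 without 30-min replicate 1 or 30-min replicate 3, 6 without quiescent replicate 2 or quiescent replicate 3 and 17 without log-growth replicate 1, and a higher count of 1 without 30-min replicate 3. Stress genes numbered 1 higher and 21 lower under total-count scaling and 4 and 25 without replicate 1 of all groups. HSP12, a small membrane protein of stressed cells, had 23246, 24072 and 24151 at 30 min and 1120.4, 5788 and 5155 at 240 min (-2.89 ± 0.99 (SE), adjusted p = 0.0479), a call lost without 30-min replicate 1, 30-min replicate 2, 30-min replicate 3, 240-min replicate 1, 240-min replicate 2, 240-min replicate 3, quiescent replicate 1, quiescent replicate 2 and quiescent replicate 3 (adjusted p up to 0.173). Replicate 1 was the lowest at 240 min, and all libraries of 240 min lay below those of 30 min. TRR1, thioredoxin reductase, rose (3068 ± 427 at 30 min to 7333 ± 358 at 240 min, 1.27 ± 0.26 (SE), adjusted p = 0.00388). In the 20 genes of trehalose and glycogen the median change was 1.01 within replicate 1, -0.72 within replicate 2 and -0.64 within replicate 3. TPS2, of trehalose synthesis, had 833, 1016 and 964 at 30 min and 5595, 1360.1 and 1565 at 240 min (adjusted p = 0.087), and its replicate 1 stood far above the others. TPS3 rose (463 ± 82.5 at 30 min to 1293 ± 476 at 240 min, 1.44 ± 0.33 (SE), adjusted p = 0.00712) and NTH2, a trehalase, fell (2505 ± 208 at 30 min to 1149 ± 52.8 at 240 min, -1.12 ± 0.21 (SE), adjusted p = 0.00222). The stress element agggg stood in 54.1% of the listed stress promoters, 21.9% of all, 26.4% of the lower genes and 18.7% of the higher ones. At 2-fold or more the shares were 30.5% of genes that fell and 16.9% of those that rose. Listed stress genes with the element had a median of -0.54 and those without it -0.88.

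Among genes for the recycling of cell parts, transcripts of a few receptors fell. Of 34 genes of autophagy and the vacuole 11 fell and 1 rose, the former 6 without 30-min replicate 2 and 7 without 30-min replicate 1 or 30-min replicate 3. Autophagy genes numbered 0 higher and 21 lower under total-count scaling and 3 and 24 without replicate 1 of all groups. The one that rose was YPS1, a call lost without 30-min replicate 1, 30-min replicate 2, 30-min replicate 3, 240-min replicate 1, 240-min replicate 2, 240-min replicate 3, quiescent replicate 2, quiescent replicate 3 and log-growth replicate 3 (adjusted p up to 0.146). ATG39 and ATG40, receptors for the degradation of nuclear envelope and endoplasmic reticulum, had 1529, 1886 and 1835 at 30 min and 322, 254 and 252 at 240 min for the first (-2.66 ± 0.46 (SE), adjusted p = 0.00132) and -1.92 ± 0.28 for the second (adjusted p = 0.00041). ATG41, which acts early in autophagosome formation, had 2911, 1681 and 1903 at 30 min and 279, 303 and 279.7 at 240 min (-2.87 ± 0.27 (SE), adjusted p = 4.12e-05). The vacuolar proteases PEP4, PRB1 and PRC1 had 0.21 ± 0.29, -0.45 ± 0.52 and 0.11 ± 0.36, none past the threshold (adjusted p = 0.644, 0.561 and 0.863).

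Transcripts for the uptake of minerals shifted at single genes. PHO89, the sodium-coupled phosphate carrier, had 551, 1007 and 837 at 30 min and 163, 125 and 139 at 240 min (-2.44 ± 0.32 (SE), adjusted p = 0.00023). SPL2, which restrains phosphate uptake of low affinity, had -2.05 ± 0.31 (adjusted p = 0.000507). Both stayed above log growth (34.6 ± 18.3 and 26.2 ± 6.8). PHO3, an acid phosphatase, rose (738 ± 187 at 30 min to 1928 ± 156 at 240 min, 1.42 ± 0.23 (SE), adjusted p = 0.000833). ZAP1, the zinc-responsive activator, fell (589 ± 49.8 at 30 min to 295 ± 53.7 at 240 min, -1.01 ± 0.23 (SE), adjusted p = 0.00714), and the zinc carrier ZRT1 had 4599, 4689 and 4562 at 30 min and 1386, 934 and 928 at 240 min (adjusted p = 0.0588, or 0.0158 with the block). For iron, 8 of 29 genes fell and none rose, the count being 3 without 30-min replicate 2 or 30-min replicate 3 or 240-min replicate 3, 4 without 240-min replicate 2 and 5 without 30-min replicate 1 or quiescent replicate 3. Iron genes numbered 0 higher and 18 lower under total-count scaling and 2 and 19 without replicate 1 of all groups. ISU1, the scaffold on which iron-sulfur clusters are built, had 5856, 5194 and 4917 at 30 min and 1267, 1859 and 1851 at 240 min (-1.70 ± 0.29 (SE), adjusted p = 0.00123).

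Genes of other cell states were checked. Of 32 meiosis and sporulation genes 14 fell and none rose (median -0.79), from a level that was low at 30 min: the whole list took 0.111% to 0.123% of the reads at 30 min and 0.0491% to 0.0544% at 240 min. Sporulation genes numbered 0 higher and 24 lower under total-count scaling and 1 and 22 without replicate 1 of all groups. SPR28, a septin of sporulating cells, had 460.5, 424 and 465 at 30 min and 83.6, 156 and 136 at 240 min (-1.88 ± 0.28 (SE), adjusted p = 0.000538). Of 32 mating genes 9 rose and 3 fell, the latter 1 without 30-min replicate 2 or 30-min replicate 3 or 240-min replicate 1 or 240-min replicate 2 and 5 without quiescent replicate 1. Mating genes numbered 11 higher and 6 lower with the replicate block, 5 and 9 under total-count scaling and 14 and 8 without replicate 1 of all groups. STE2, the receptor of a cells, had 1711, 1606 and 1751 at 30 min and 4529.5, 5288 and 4875 at 240 min (1.53 ± 0.25 (SE), adjusted p = 0.000884). STE3, the receptor of alpha cells, had 381, 414 and 379 at 30 min and 105, 149 and 149.9 at 240 min (-1.55 ± 0.22 (SE), adjusted p = 0.000382). BAR1, the protease by which a cells break down alpha factor, rose (228 ± 30.6 at 30 min to 1060.0 ± 432 at 240 min, 2.15 ± 0.31 (SE), adjusted p = 0.00042). The labels do not give the mating type, and the mix of cell types in the cultures was not tested.

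Some small RNAs fell in these poly(A) libraries. Of 75 genes named as small nucleolar or small nuclear RNAs 19 fell and 2 rose, the lower count being 12 without 30-min replicate 2. These RNAs numbered 0 higher and 34 lower under total-count scaling and 4 and 40 without replicate 1 of all groups. The ones that rose, snR13 and snR64, were called 0.87 ± 0.27 and 1.30 ± 0.39 (adjusted p = 0.0331 and 0.0286), and neither held throughout. The snR13 call was lost without 30-min replicate 1, 30-min replicate 2, 30-min replicate 3, 240-min replicate 2 and 240-min replicate 3 (adjusted p up to 0.11). The snR64 call was lost without 30-min replicate 1, 30-min replicate 2, 30-min replicate 3, 240-min replicate 2 and 240-min replicate 3 (adjusted p up to 0.0995). snR18, which lies in an intron of EFB1, had 1013, 748 and 759.9 at 30 min and 72.4, 89.5 and 96.2 at 240 min (-3.27 ± 0.35 (SE), adjusted p = 6.58e-05), while EFB1 had 17357, 5393 and 5697 at 30 min and 12249, 9112 and 8962 at 240 min (adjusted p = 0.671). snR14, the U4 RNA of the spliceosome, had 144, 329 and 317 at 30 min and 27.2, 44.7 and 49.2 at 240 min (-2.63 ± 0.45 (SE), adjusted p = 0.00121), against 4642 in quiescent cells. Mature small RNAs of this kind have no long poly(A) tail, and which forms these libraries counted was not tested.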

How the data were processed

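Poly(A) RNA of 12 yeast libraries was sequenced, single-end reads of 75 bases per the labels' protocols, and the deposited table gives a normalised count per gene and library, used here as a signal made by the authors. The submitters' processing notes name the aligner STAR (2.5.2a), the counter HTSeq (0.6.1), bedtools, DESeq and DESeq2, with sacCer3 as the genome build. Strand use in the counting is not stated there. Of the authors' deposited values 100% were whole multiples of what 1 read is worth, so the authors' table is counts divided by a size factor, and the whole reads were recovered. Names and positions came from the R64 reference annotation, which held 6117 of the 6120 genes.

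Values were tested with limma 3.58.1 (intensity trend, R 4.3.3) on log2(value + 1) for 5871 genes with a mean of at least 10, in 1 model of 4 groups over 12 libraries with no replicate block, two-sided, with Benjamini-Hochberg adjustment over all genes. A pseudocount of 1 understates the change of low genes. An exact permutation test of 3 against 3 libraries cannot give a p below 0.10, so none is printed. The 52 gene lists were described by counts and medians with no set test. The members, lists and rules were chosen with earlier results of these data known. Genes named were the 15 largest changes each way without overlap between libraries and with the higher group's mean at 50 or more. Per list they were up to 3 called each way, also without overlap, and 3 uncalled of highest level. Paralog pairs and listed regulators were added. Some results under these rules are not reported here. Other settings were edgeR 4.0.16 and DESeq2 1.42.0 on the recovered reads, other scalings, filters and pseudocounts, the replicate block, and each library left out. The test was checked on simulated counts.

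Deviations from the group means correlated across genes between 30-min and 240-min libraries of the same replicate number, at 0.571, 0.394 and 0.582 for replicates 1, 2 and 3, and as closely between replicates 2 and 3 across numbers, at 0.417 and 0.553. Replicate 1 correlated with the others at -0.604 to -0.431. Deviations from a group mean cancel out for each gene, so negative correlations had to accompany the positive ones. The labels do not say what the number marks. Libraries of a group differed beyond sampling noise (chi-square over its degrees of freedom 3.76 or more for each pair), and none was treated as a copy.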

Additional observations from a re-analysis of the deposited data

How the results depend on the processing

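Under pseudocounts of 0.5 and 5, no filter, a minimum mean of 50, TMM scaling, edgeR and DESeq2 all counts over the genes and the main lists stayed within 1.5 times those reported. Total-count scaling gave 328 higher and 1935 lower genes (226 and 1240 at least 2-fold), 21 lower beta-oxidation genes and 11 higher amino acid synthesis genes. It turned the sign of list medians for endoplasmic reticulum chaperones (-0.188), ribosome assembly (-0.272), the mitochondrial ribosome (-0.402), RNA polymerases I and III (-0.298), the proteasome (-0.309), glucose sensing (-0.294), DNA replication (-0.445), pyrimidine synthesis (-0.277), fatty acids and phospholipids (-0.0678), Start (-0.317), acetyl-CoA supply (-0.0924) and mating (-0.191), since it lowers all changes by the same shift. The replicate block in the fit of 6 libraries gave 1606 higher and 1651 lower genes, 21 lower beta-oxidation genes, and 49, 22 and 8 higher genes of amino acid synthesis, ergosterol and histones. The block in the fit of 12 libraries gave 1155 and 1159 genes and 8 histones. Of the 532 genes that met the rules for naming, 69 gained a call with this block and 1 lost it. Beyond the values printed with the results, the block changed no call of a gene printed here. It moved no printed list count by over 1.5 times and more than 1 gene. edgeR with the replicate block, chosen after seeing the data, gave 1188 higher genes and 8 histones, and the fit of 6 libraries alone gave 8 histones. Without replicate 1 of all groups there were 1777 higher and 1782 lower genes, 22 lower beta-oxidation genes, and 52, 22 and 8 higher genes of amino acid synthesis, ergosterol and histones. Without it the median for Start was -0.0853, and the log2 change of COX5B (-0.407), the log2 change of GSY2 (-0.691) and the log2 change of TPK2 (-0.242), none of them called, changed sign. Why was not tested. Start had -0.0003 within replicate 3 and -0.0452 to 0.183 with 1 library left out. Histone acetyltransferases had 0.0134 within replicate 2, and -0.175 to 0.0588 with 1 library left out. Leaving out 1 library gave 516 to 1114 higher and 495 to 1164 lower genes, 11 to 22 lower chaperones and 4 to 8 higher histones. With 3 libraries a side, small changes cannot be told from the spread, and low counts limit genes near the minimum mean.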
